A study of Mus musculus with 4 samples.

Results

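Glutathione S-transferases are the enzymes that couple the tripeptide glutathione to reactive molecules. Here 10 of their genes, Gsta3, Gsta4, Gstm1, Gstm2, Gstm5, Gstp1, Gstt1, Gsto1, Mgst1 and Mgst3, were followed in the epididymal fat pad of obese mice. They were picked by gene symbol out of 24421 genes, and all 10 were among the 14106 genes that passed the filter on low values. The mice were wild-type (WT) C57BL/6J males, and the RNA-seq libraries came from whole tissue, with 2 in each group. Weight-cycled mice (WC1) ate high-fat diet (HFD) for 8 weeks from the age of 8 weeks, standard diet (SD) for 2 weeks, and HFD for 6 more weeks. Control mice (Ctrl) started HFD at 10 weeks of age and stayed on it for 14 weeks, so that each group had 14 weeks of HFD in all and reached 24 weeks of age. The labels do not say whether a library came from 1 mouse or from several, and the p values measure only the spread between these libraries, which may be technical.

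The family has soluble members, which are grouped into classes by sequence (alpha, mu, pi, theta, omega and others), and membrane-bound members of the MAPEG superfamily, which include Mgst1 and Mgst3. The enzymes act on drugs, on epoxides and on the aldehydes and hydroperoxides that arise when membrane lipids are oxidised, and the conjugates leave the cell through transporters of the Abcc family. In adipose tissue the alpha class enzyme Gsta4 is known for the removal of 4-hydroxynonenal, an aldehyde from oxidised fatty acids that modifies proteins. Many genes of the family are targets of the transcription factor NRF2, encoded by Nfe2l2.

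Of the 10 genes, Gstp1 and Gstt1 fell and Mgst3 rose in WC1 compared to Ctrl at an adjusted p under 0.05 (limma, Benjamini-Hochberg over all tested genes). The other 7 did not pass. Of all tested genes 10.2% were called higher and 7.71% lower, 17.9% together, so 3 calls among 10 genes are given as a description. The median log2 fold change of the 10 genes was 0.0027, compared to -0.02 over all tested genes, with 5 positive and 5 negative values. Values are in CPM, reads divided by a library size that the authors rescaled, or in TPM, which is corrected for transcript length. Of all called genes, 57.0% were higher in CPM and 77.9% in TPM. The all-gene median log2 fold change stood at 0.10 in TPM, which is 0.12 above that in CPM. The libraries held between 61465029 and 90965297 reads. The members had between 181 reads (Gsta4 in WC1 1) and 38483 reads (Gstm1 in Ctrl 2) per library.

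The levels of the genes were compared with each other in TPM. Mgst1 had the highest level in each group, with 813 ± 3.12 TPM in Ctrl and 1043 ± 138 TPM in WC1 (mean ± SD, n = 2 per group). Gstm1 followed at 601 ± 82.7 TPM in Ctrl and 635 ± 91.0 TPM in WC1. Both were abundant transcripts of the tissue, since 153 of the 14106 tested genes had a higher mean TPM than Mgst1 and 241 a higher one than Gstm1. Mgst3 (229 ± 9.64 TPM), Gstp1 (218 ± 13.1 TPM), Gstm2 (184 ± 15.6 TPM) and Gsto1 (157 ± 2.40 TPM) came next in Ctrl, and the libraries of Mgst3 and Gstp1 overlapped. Gsta3 (50.3 ± 4.83 TPM) and Gstt1 (46.8 ± 0.52 TPM) also overlapped in Ctrl, and Gstm5 (26.2 ± 0.22 TPM) and Gsta4 (7.43 ± 0.20 TPM) were lowest. In WC1 the order was Mgst1, Gstm1, Mgst3, Gstm2, Gsto1, Gstp1, Gstt1, Gsta3, Gstm5 and Gsta4, so that Gstp1 had moved from rank 4 to rank 6. In WC1 Gsta3 overlapped with Gstt1 and with Gstm5, and the other neighbours did not overlap. Gsta4 was the least abundant of the 10 genes in each library, and 9507 tested genes had a higher mean TPM.

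The TPM of the 10 genes summed to 2250 in Ctrl 1, 2416 in Ctrl 2, 2436 in WC1 1 and 2947 in WC1 2. The WC1 sums lay above the Ctrl sums, but WC1 1 was close to Ctrl 2, and the all-gene median is higher by 0.12 in TPM than in CPM. In CPM the sums overlapped, with 1195 and 1281 in Ctrl and 1175 and 1387 in WC1. Within the TPM sum Mgst1 and Gstm1 together took 60.2% and 61.0% in Ctrl and 62.2% and 62.4% in WC1. Gstp1 took 9.28% and 9.41% of the sum in Ctrl and 4.88% and 5.20% in WC1. In WC1 Mgst3 took 13.1% and 11.5%, above its 9.89% and 9.77% in Ctrl. The TPM ratio of Mgst3 to Gstp1 was 1.07 and 1.04 in the Ctrl libraries, compared to 2.69 and 2.22 in the WC1 libraries. The microsomal members together took 45.9% and 43.5% of the sum in Ctrl and 51.9% and 50.2% in WC1, without overlap.

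**Figure D1:**
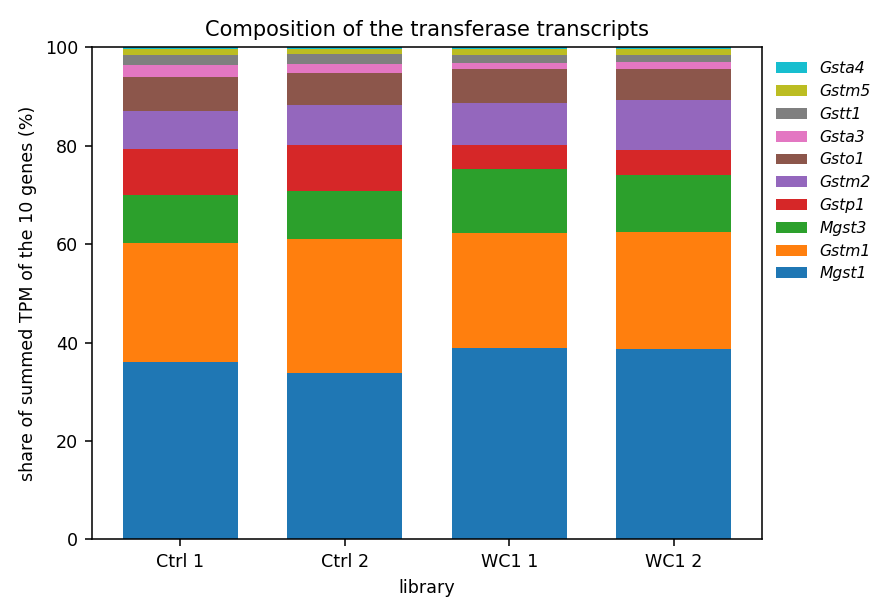
Share of each gene (%, vertical axis) in the summed TPM of the 10 transferase genes for each of the 4 libraries (horizontal axis). Mgst1 and Gstm1 fill 60.2% to 62.4% of every bar, the Gstp1 band takes 9.28% and 9.41% in Ctrl and 4.88% and 5.20% in WC1, and the Mgst3 band is wider in WC1.

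Gstp1 encodes the main pi class enzyme, which conjugates electrophiles and is also known to bind and restrain the stress kinase JNK. The gene lies at chr19:4035407-4037985 on the minus strand (GRCm38, the assembly also called mm10, GENCODE M21). Its level was 81.3 and 87.6 CPM in Ctrl and 42.5 and 53.0 CPM in WC1. Both WC1 libraries lay below both Ctrl libraries, by more than the libraries of a group differed. Gstp1 fell by 0.82 ± 0.12 on the log2(CPM + 1) scale (SE, limma adjusted p = 0.022), to 56.5% of the Ctrl mean. Of the tested genes 2.71% had a lower log2 fold change.

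A gap of 2299 bases separates Gstp2 from Gstp1, in a cluster of 3 pi class genes that spans 24.2 kb. It stood at 15.2 and 16.7 CPM in Ctrl and 9.73 and 10.8 CPM in WC1, without overlap. Gstp2 also fell by 0.58 (limma adjusted p = 0.029 for the log2 values), and the TPM ratio of Gstp1 to Gstp2 was 5.42 and 5.32 in Ctrl, compared to 4.41 and 4.94 in WC1. The transcripts of the pair are alike, and 29.2% of the distinct 75-base words in the GENCODE transcripts of Gstp1 occurred in those of Gstp2. The sources used here do not give how reads that match more than 1 gene were counted, and the split between Gstp1 and Gstp2 is uncertain. Their summed level was 96.5 and 104 CPM in Ctrl and 52.2 and 63.8 CPM in WC1, again without overlap.

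Sequence from 250 bases before the RefSeq start of each gene (GRCm38.p6) is shown because both genes of the pair fell, written 5′ to 3′ along the gene. It lies within the promoter window of the gene and ends 20 bases past an element in capitals, TGAGNNNGC, a form of the antioxidant response element that NRF2 binds. The sequence TGAGTCAGC began 74 bases before the start of Gstp1 and 89 bases before the start of Gstp2, and its letters also hold TGAGTCA, the AP-1 site. The RefSeq starts lie inside the GENCODE genes, which reach further upstream, so that this element overlaps the first bases of Gstp1 as GENCODE gives it, and the stretch of Gstp2 lies within the GENCODE gene (chr19:4040285-4046023). In Gstp1 a match on the opposite strand began 9 bases before the start, outside the stretch shown. Over windows of 300 bases, which add the 50 bases after the start, 246 aligned bases were identical and the longest run shared without a gap had 43 bases.
Gstp1, chr19:4037958-4038162, minus strand: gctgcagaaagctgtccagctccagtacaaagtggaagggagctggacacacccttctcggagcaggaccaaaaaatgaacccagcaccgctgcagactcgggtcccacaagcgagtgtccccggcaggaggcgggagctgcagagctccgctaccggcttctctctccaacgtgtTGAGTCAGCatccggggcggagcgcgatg
Gstp2, chr19:4042282-4042471, minus strand: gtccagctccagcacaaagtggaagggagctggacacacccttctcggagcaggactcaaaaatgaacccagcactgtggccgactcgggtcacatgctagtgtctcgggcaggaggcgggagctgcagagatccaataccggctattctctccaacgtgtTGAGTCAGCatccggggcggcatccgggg

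RefSeq promoter windows (250 bases before to 50 bases after a start) were found for 9 of the 10 genes, with 11 windows. The common form of the element, TGACNNNGC on either strand, occurred in the windows of 3 of these 9 genes, compared to 14.0% of 27025 genes. TGAGNNNGC, which was added after the sequences had been seen, occurred in Gstp1, Gstt1 and Gstm5, also 3 of 9 genes, compared to 19.8% of all genes. The genes with TGACNNNGC were Gsta3, Gstm5 and Mgst1, none of which passed the test between groups. A match describes letters and not a bound site. Those of Gsta3 and Gstm5, which began 121 and 42 bases before the start, are shown with 20 bases on each side and the element in capitals. In Mgst1 the match lay on the opposite strand, 56 bases before the RefSeq start and inside the gene as GENCODE gives it (chr6:138140316-138156755). The window of Gstt1 also lies within its GENCODE gene (chr10:75783813-75798584).
Gsta3, chr1:21240444-21240492, plus strand: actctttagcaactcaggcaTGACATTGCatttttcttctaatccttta
Gstm5, chr3:107895792-107895840, plus strand: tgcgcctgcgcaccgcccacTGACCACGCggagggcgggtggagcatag

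Gstt1, a theta class enzyme known for conjugating small halogenated compounds such as dichloromethane, lies at chr10:75783813-75798584 on the minus strand. Its level was 25.2 and 25.4 CPM in Ctrl and 19.8 and 19.6 CPM in WC1. The groups did not overlap, and the libraries within each group were nearly equal (SD 0.10 CPM in Ctrl and 0.13 CPM in WC1). Gstt1 fell by 0.34 ± 0.08 on the log2(CPM + 1) scale (limma adjusted p = 0.041), to 77.9% of the Ctrl mean. In TPM its log2 fold change was -0.21 with a limma adjusted p of 0.074, and without the filter on low values the adjusted p was 0.060, so the call was lost in both settings. Of the theta class genes beside it in a cluster of 4 genes over 63.3 kb, Gstt3 had 10.97 and 9.94 CPM in Ctrl and 8.00 and 9.10 CPM in WC1. Gstt2 had 13.6 and 11.7 CPM in Ctrl and 14.6 and 15.4 CPM in WC1. Neither passed the test, with log2 fold changes of -0.26 for Gstt3 and 0.24 for Gstt2 (limma adjusted p = 0.16 and 0.18).

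Both microsomal members had higher values in WC1. Mgst3, known to reduce lipid hydroperoxides and to make leukotriene C4, lies at chr1:167371966-167393841 on the minus strand. It stood at 73.9 and 77.7 CPM in Ctrl and 97.3 and 100.4 CPM in WC1. Both WC1 libraries were above both Ctrl libraries, by more than the libraries of a group differed. Mgst3 rose by 0.38 ± 0.07 on the log2(CPM + 1) scale (limma adjusted p = 0.028), to 130.4% of the Ctrl mean, and 15.2% of the tested genes had a higher log2 fold change. Mgst1, a transferase and peroxidase of the endoplasmic reticulum and the outer mitochondrial membrane at chr6:138140316-138156755 on the plus strand, stood at 400.2 and 398 CPM in Ctrl and 428 and 499.7 CPM in WC1. The groups did not overlap, but WC1 2 lay far above WC1 1, and the log2 fold change of 0.21 ± 0.11 did not pass (limma adjusted p = 0.21).

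**Figure D2:**
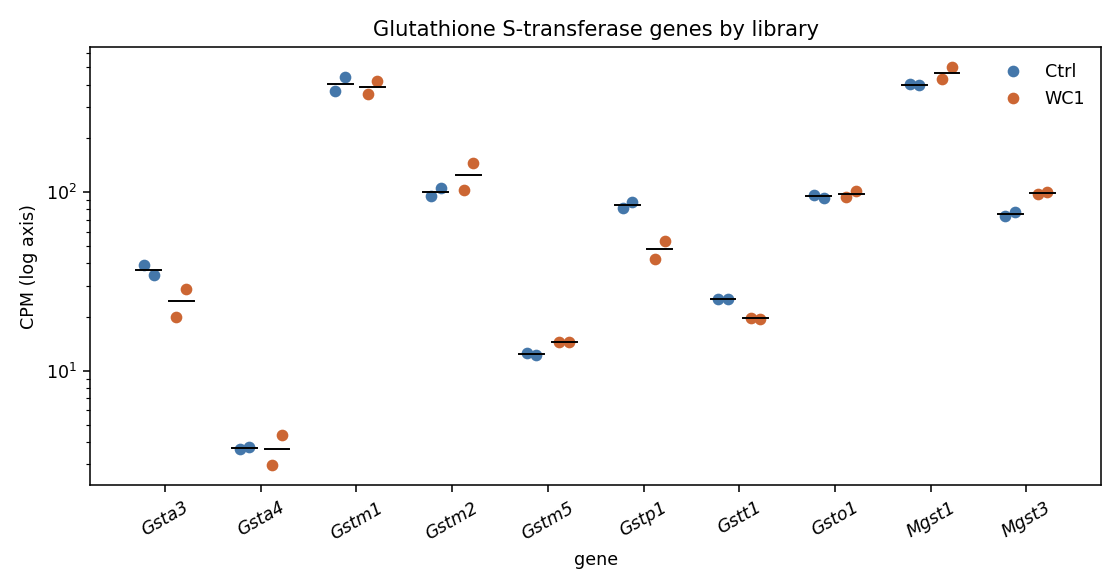
CPM (vertical log axis) of the 10 transferase genes (horizontal axis) in each library, with blue points for Ctrl, orange points for WC1 and black lines at the group means (n = 2 per group). Gstp1 is at 81.3 and 87.6 CPM in Ctrl, compared to 42.5 and 53.0 CPM in WC1, while the Gstm1 points of the groups overlap.

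Of the alpha class, Gsta3 (chr1:21240589-21265661, plus strand), known in mice for the conjugation of aflatoxin epoxide, stood at 39.2 and 34.1 CPM in Ctrl and 20.1 and 28.7 CPM in WC1. The WC1 libraries lay below the Ctrl libraries but differed widely from each other. Gsta3 had a log2 fold change of -0.58 ± 0.18 and did not pass (limma adjusted p = 0.085). DESeq2 on the recovered reads called it (adjusted p = 0.032), but called 27.4% of all tested genes, compared to 17.9% in limma. Gsta4 (chr9:78182774-78209349, plus strand) stood at 3.66 and 3.76 CPM in Ctrl, compared to 2.97 and 4.35 CPM in WC1. The WC1 values enclosed the Ctrl values. Its log2 fold change was -0.03 ± 0.17 (limma adjusted p = 0.92), with a sign that turned positive in TPM (0.09) and in both count models. Of the other alpha class genes, Gsta1, Gsta2 and Gm3776 had at most 0.53 CPM in a Ctrl library, were listed at 0 in both WC1 libraries and stood under the filter. Of their 75-base words 84.7% (Gsta1), 36.6% (Gsta2) and 89.1% (Gm3776) occur in transcripts of other genes, so these values are uncertain.

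The mu class genes lie in a cluster of 7 genes on chromosome 3 that spans 149 kb, with Gstm5 at chr3:107895821-107898686 on the plus strand and Gstm2 and Gstm1 at chr3:107981702-107986453 and chr3:108012255-108017973 on the minus strand. Gstm1, the most abundant of them, stood at 367 and 442 CPM in Ctrl and 354 and 421 CPM in WC1. The groups overlapped, and the difference of -0.06 ± 0.14 on the log2 scale (limma adjusted p = 0.77) turned positive in TPM (0.08) and after quantile normalization (0.10). Gstm2 stood at 94.9 and 106 CPM in Ctrl and 103 and 145 CPM in WC1. Only WC1 2 was above both Ctrl libraries, and the log2 fold change was 0.28 ± 0.18 (limma adjusted p = 0.30). Gstm5 stood at 12.6 and 12.3 CPM in Ctrl, compared to 14.5 and 14.6 CPM in WC1. The groups did not overlap, and the log2 fold change of 0.21 ± 0.09 did not pass in CPM (limma adjusted p = 0.14) but did in TPM (0.36, limma adjusted p = 0.033), where the median of all genes was also higher by 0.12. Of its exonic bases 13.9% overlap exons of 4933431E20Rik on the opposite strand, and the strand setting of the read counting is not stated, so those reads are uncertain.

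Among the members, words shared with other genes were fewer in the mu class than in Gstp1. Of the distinct 75-base words in the GENCODE transcripts, 11.7% of those of Gstm1 and 1.85% of those of Gstm2 occurred in transcripts of another gene, and for the other 7 members apart from Gstp1 the share was 0. Gstm3, which shares 21.6% of its words with other genes, was listed at 0 in WC1 1 but stood at 5.70 CPM in WC1 2 and at 5.04 and 6.46 CPM in Ctrl. The sum over the 7 mu class genes was 497 and 584 CPM in Ctrl and 491 and 612 CPM in WC1, and the groups overlapped.

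Gsto1, the omega class enzyme that reduces dehydroascorbate and mixed disulfides of glutathione, lies at chr19:47854970-47864790 on the plus strand. It stood at 96.1 and 93.1 CPM in Ctrl and 93.4 and 101 CPM in WC1. The groups overlapped, and the log2 difference was 0.04 ± 0.07 (limma adjusted p = 0.74). Over the 10 genes, both WC1 libraries were above both Ctrl libraries in CPM in 3 (Gstm5, Mgst1 and Mgst3), compared to 32.7% of all tested genes. Both were below in CPM in 3 (Gsta3, Gstp1 and Gstt1), compared to 36.6% of all tested genes. In TPM Gstm2 and Gsto1 also lay above without overlap, which made 5 genes, compared to 49.1% of all tested genes. The genes below in TPM were again Gsta3, Gstp1 and Gstt1, compared to 21.7% of all tested genes.

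The calls of Gstp1, Gstt1 and Mgst3 needed both Ctrl libraries. Without Ctrl 1 the limma adjusted p was 0.15 for Gstp1, 0.27 for Gstt1 and 0.24 for Mgst3, and without Ctrl 2 it was 0.13, 0.23 and 0.16. In these fits the lone Ctrl library is assumed to vary like the WC1 libraries, and over all genes 2 rose and 4 fell without Ctrl 1 and 6 rose and 6 fell without Ctrl 2. Without WC1 1, where 36.7% of all tested genes were called, Gstm2 (0.53, limma adjusted p = 0.0064) and Mgst1 (0.32, limma adjusted p = 0.019) were also called, whereas without WC1 2 their log2 fold changes were 0.03 and 0.10 (limma adjusted p = 0.83 and 0.39). Without WC1 2, Gsta3 was called (-0.83, limma adjusted p = 0.0073), whereas without WC1 1 it stood at -0.34 (limma adjusted p = 0.057). Gstt1 was not called without WC1 2 (limma adjusted p = 0.056). With 1 library left out, the log2 fold change of the called genes ranged from -0.97 to -0.66 for Gstp1, from -0.35 to -0.34 for Gstt1 and from 0.34 to 0.41 for Mgst3.

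**Figure D3:**
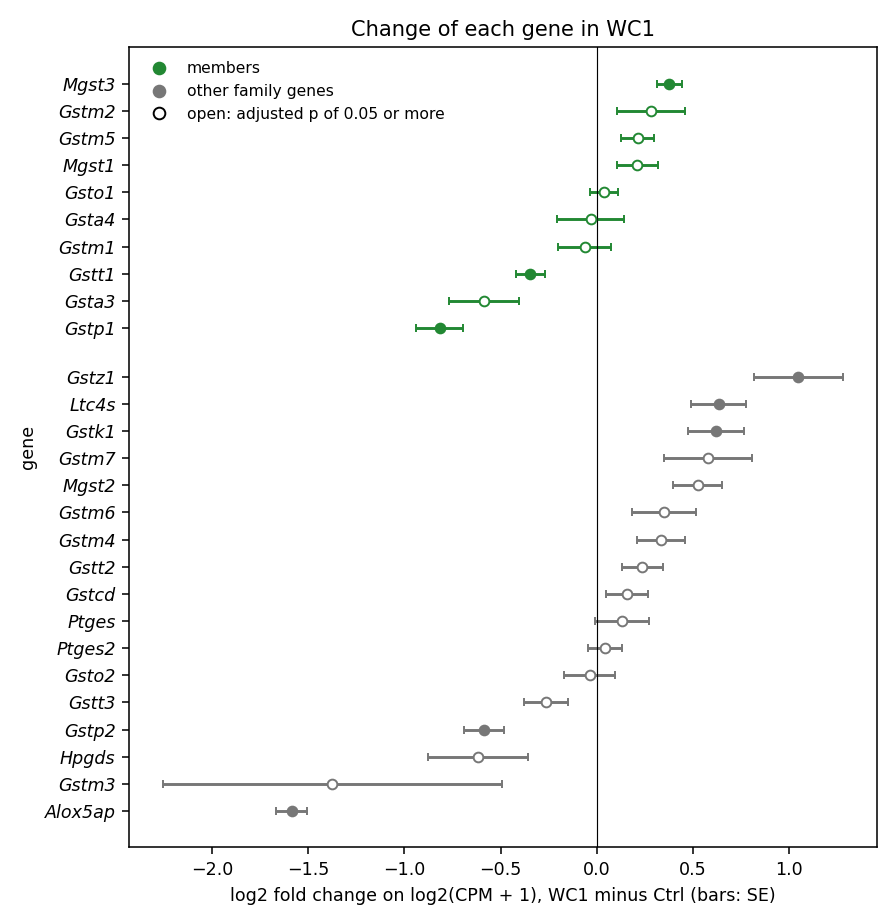
Log2 fold change on log2(CPM + 1), WC1 minus Ctrl (horizontal axis, bars are SE), for the 10 members in green and 17 other tested family genes in grey (vertical axis). Filled points have a limma adjusted p under 0.05, and among the members these are Mgst3 at 0.38, Gstt1 at -0.34 and Gstp1 at -0.82.

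Other genes of the family and of MAPEG were taken from a list of 23 symbols, of which 21 were in the matrix and 17 were tested. Of these, 3 rose and 2 fell, with a median log2 fold change of 0.16, beside 10.2% higher and 7.71% lower over all tested genes. Gstz1, the maleylacetoacetate isomerase of tyrosine breakdown, stood at 186 and 242 CPM in Ctrl and 359 and 541 CPM in WC1. Both WC1 libraries lay above both Ctrl libraries, and Gstz1 rose by 1.05 ± 0.23 on the log2(CPM + 1) scale (limma adjusted p = 0.043). Gstk1, of mitochondria and peroxisomes, rose by 0.62 (limma adjusted p = 0.046). Ltc4s, the leukotriene C4 synthase, rose by 0.63 (limma adjusted p = 0.044). Alox5ap, which presents arachidonic acid to 5-lipoxygenase and is not known to conjugate glutathione, fell by 1.59, and the other gene that fell was Gstp2. Hpgds, a prostaglandin D synthase of the sigma class, did not pass at -0.62 (limma adjusted p = 0.15). Mgst2, another microsomal transferase, had 9.17 and 7.38 CPM in Ctrl and 12.3 and 12.2 CPM in WC1, and its difference of 0.52 lay just outside the threshold (limma adjusted p = 0.0503). Of the 17 genes 11 passed without WC1 1, when 36.7% of all tested genes did, and 0 without Ctrl 1 or without Ctrl 2, when 6 and 12 genes in all did.

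Of 20 genes of glutathione synthesis and reduction, which supply and recycle the substrate of the transferases, 9 fell and 1 rose, with a median log2 fold change of -0.31, beside 7.71% lower and 10.2% higher over all tested genes. Gclc, the catalytic subunit of the rate-limiting ligase of glutathione synthesis, fell by 1.12 on the log2 scale and its partner Gclm fell by 1.93, and the next enzyme of the pathway, Gss, fell by 0.68. Slc7a11, the cystine importer, fell by 2.41, and Gsr, which regenerates glutathione from its oxidised form, fell by 1.89. Esd, which hydrolyses S-formylglutathione, fell by 1.93, and Glrx fell by 0.62 (limma adjusted p = 0.046). Gpx3 fell by 0.55 and Gpx8 fell by 0.41, while Oplah, which opens the ring of 5-oxoproline, rose by 0.53. The abundant peroxidases Gpx1 (-0.50, limma adjusted p = 0.085) and Gpx4 (0.21, limma adjusted p = 0.19) did not pass. Gstp1, the member with the lowest log2 fold change, stood at -0.82 beside these values. Without Ctrl 1 none of the 20 genes passed (limma, 0 calls), and without Ctrl 2 only 1 did, beside the 6 and 12 calls over all genes in those fits.

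Of 17 tested genes for the export and further processing of glutathione conjugates, 4 fell and 2 rose (median log2 fold change -0.05), 6 calls beside 17.9% of all tested genes. Those that fell were the transporters Abcc1 (-1.22), Abcc4 (-0.76), Abcc3 (-0.58) and Abcc5 (-0.50). Lap3 (0.34), a leucine aminopeptidase, and Ccbl1 (0.44, limma adjusted p = 0.046), a cysteine conjugate lyase, rose. Anpep, the most abundant gene of the list, changed by -0.71 on the log2 scale without passing (limma adjusted p = 0.10). Leaving out WC1 1 gave 11 calls among these 17 genes, beside 36.7% of all tested genes, and leaving out Ctrl 1 or Ctrl 2 gave 0, beside 6 and 12 calls over all genes.

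Among 15 tested enzymes that oxidise or reduce lipid aldehydes and related carbonyls, 5 fell and 3 rose (median log2 fold change -0.12), 8 calls beside 17.9% of all tested genes. The aldo-keto reductase Akr1b8 fell by 3.01, the prostaglandin reductase Ptgr1, which also acts on 4-hydroxynonenal, fell by 2.45, and the carbonyl reductase Cbr3 fell by 1.85. Akr1a1 fell by 0.87 and the mitochondrial aldehyde dehydrogenase Aldh2 fell by 0.48. Aldh1a7 (0.99), Aldh1a1 (0.52, limma adjusted p = 0.048) and the alcohol dehydrogenase Adh1 (0.34, limma adjusted p = 0.044) rose. Of the transcription factors and partners that control transferase genes 9 were tested and 4 called, also beside 17.9% of all genes, with a median log2 fold change of -0.19. Mafg, a partner of NRF2, fell by 0.67, the repressor Bach1 fell by 0.51 and Nfe2l2 fell by 0.35, while Pparg, which is also a marker of adipocytes, rose by 0.41. The number of regulators called was 4 here, 2 in TPM, 2 in edgeR and 1 with no filter on low values. Over all genes 17.9%, 18.7%, 17.6% and 7.28% were called in these fits. Nfe2l2 and Bach1 lay close to the threshold (limma adjusted p = 0.045 and 0.047). Without Ctrl 1, 0 of the lipid aldehyde enzymes and 0 of the regulators passed, and without Ctrl 2 the numbers were 1 and 0.

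**Figure D4:**
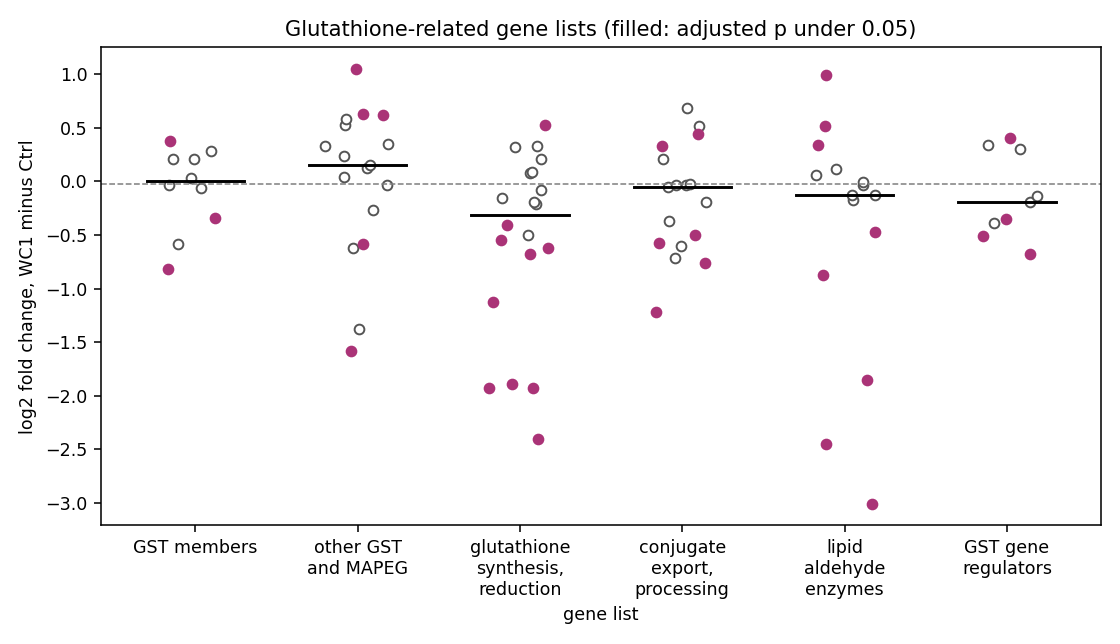
Log2 fold change, WC1 minus Ctrl (vertical axis), of each tested gene in the 6 lists of transferase and glutathione genes (horizontal axis), with filled points at a limma adjusted p under 0.05, black lines at the list medians and a dashed line at the median of all tested genes (-0.02). The members lie between -0.82 and 0.38, whereas glutathione synthesis and reduction reaches -2.41 and the lipid aldehyde enzymes reach -3.01.

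Markers of several cell types differed between the groups beside the transferases. The summed level of 15 adipocyte markers was 20690 and 21916 CPM in Ctrl and 31308 and 37733 CPM in WC1, with 11 called higher. That of 12 macrophage markers was 13169 and 12091 CPM in Ctrl and 7871 and 5618 CPM in WC1, with 7 called lower. Mast cell markers (6 of 7 called lower) summed to 558 and 616 CPM in Ctrl and to 83.8 and 65.9 CPM in WC1, and endothelial markers (7 of 8 called higher) to 406 and 464 CPM in Ctrl and to 862 and 1118 CPM in WC1. Of 10 fibroblast markers 3 were called lower. Over all tested genes 10.2% were called higher and 7.71% lower. The calls of these 5 lists needed both Ctrl libraries, as did nearly all calls over all genes. In TPM 4 macrophage and 2 fibroblast markers were called lower, beside 4.13% of all tested genes. With no filter on low values 1 adipocyte marker was called higher, and 2 macrophage markers and 1 fibroblast marker lower. Of all genes 4.35% were higher and 2.93% lower in that fit. The endothelial and mast cell calls stayed at 7 and 6 there. Markers of the epididymis were near 0, since 8 of 10 were at 0 in all 4 libraries and the highest value of any was 3.02 CPM, for Adam7 in WC1 1. In bulk tissue fewer cells of a type and less RNA per cell cannot be told apart, and the part of these markers in the values of the transferases was not tested. Divided by the summed adipocyte markers, all 10 genes were lower in WC1 without overlap, with log2 differences from -1.52 (Gstp1) to -0.31 (Mgst3). The same held for 83.8% of all tested genes, and the sum itself was higher by 0.69 on the log2 scale, and Lpl and Fabp4 made up 58.0% to 71.6% of it.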

How the data were processed

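Directional poly(A) RNA-seq was carried out on whole epididymal adipose tissue, 2 libraries of Ctrl and 2 of WC1. The authors deposited a matrix of read signal per gene that is on a CPM-like scale, with a rescaled library size, and a matrix of TPM. The submitters' processing notes name fastp, HISAT2, StringTie and mm10, with no role or version, and the sources used here give no read counter or annotation. Per column, the CPM values came out as whole reads (100% within 0.01 read), from which the library totals were computed. Totals per library were 61465029 to 90965297 reads, and 3 reads corresponded to 0.0345 to 0.0492 CPM, covering counting error only.

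Genes that reached 0.5 CPM in 2 or more of the 4 libraries were tested with limma 3.58.1 in R 4.3.3 (trended variance, two-sided) on log2(CPM + 1), with Benjamini-Hochberg adjustment over all 14106 genes. With 2 libraries against 2 the smallest p of an exact permutation test is 0.333, so none is given. Alternatives were other pseudocounts and filters, TPM, other scalings, edgeR 4.0.16 and DESeq2 1.42.0 on the recovered reads, a replicate block, and leaving out each library. The replicate numbers have no stated pairing. The scripts were tested on simulated data. The members and gene lists were chosen with earlier results of these data known. Named were all members and, from each other list, the genes called and the 2 most abundant. Kyat1 and Nat8f1 were matched as Ccbl1 and Cml1. Gstt2, Gstt3, Gstm3, Gsta1, Gsta2, Gm3776 and Mgst2 were named after their values were seen. Sequences are from RefSeq (GRCm38.p6) and positions from GENCODE M21 (GRCm38). Genes were matched by symbol.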

Additional observations from a re-analysis of the deposited data

How the results depend on the processing

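With 2 libraries per group the calls of the members depended on single libraries, and the least abundant member, Gsta4, had 181 to 327 reads per library. Over 14 alternatives, 139 values of the 10 genes were computed, of which 116 kept direction and side of the threshold, 9 lost a call, 5 gained one and 9 changed sign. The cause was not tested. The sign changed only for genes that were not called, namely Gsta4 (0.0857 in TPM, 0.0023 in edgeR, 0.0034 in DESeq2, and -0.25 to 0.19 with 1 library left out), Gstm1 (0.0783 in TPM, 0.0989 after quantile normalization, and -0.196 to 0.0710) and Gsto1 (-0.0187 to 0.0908). Gstp1 and Mgst3 passed in every alternative that kept all 4 libraries, and Gstt1 in all of these but TPM and the fit with no filter.

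In TPM 2 members were called higher and 1 lower, their median was 0.13, 2 regulators were called, and 2054 genes in all were higher and 583 lower. With no filter 18132 genes were tested, 788 were called higher and 532 lower, with 1 member lower, 6 genes of glutathione synthesis and reduction, 4 lipid aldehyde enzymes, 2 other family genes and 1 regulator. edgeR called 2 regulators, and DESeq2 called 1736 genes lower. With 1 library left out, 2 to 2424 genes were called higher and 4 to 2748 lower. Among the members 0 to 3 were called higher and 0 to 2 lower, with a median from -0.10 to 0.14. Calls then numbered 0 to 11 for other family genes, 0 to 13 for glutathione synthesis and reduction, 0 to 11 for conjugate export, 0 to 8 for lipid aldehyde enzymes and 0 to 4 for regulators. Without Ctrl 1 or Ctrl 2, where limma called 0 members, 3 members had an unadjusted p under 0.05 in each fit (Gstp1, Mgst3 and Gstt1 without Ctrl 1, and Gstp1, Mgst3 and Gsta3 without Ctrl 2), compared to 18.6% and 22.1% of all tested genes.

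The replicate block gave 1769 genes higher and 1497 lower and changed no call of a member. Same-numbered libraries are not known to be paired, and their differences correlated at r = 0.19 over 14106 genes, a description over 2 pairs.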
